A study of Mus musculus with 10 samples.

Results

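Transcript levels of 10 genes of the Hippo pathway were followed in heart muscle cells taken from the border and the remote zone of infarcted mouse hearts. The set, taken by symbol from a table of 56832 genes, holds the co-activators Yap1 and Wwtr1 (TAZ), their DNA-binding partner Tead1, the kinases Lats1 and Lats2, the junction proteins Amotl1, Amotl2 and Ajuba, and the secreted proteins Ccn1 (Cyr61) and Ccn2 (Ctgf). All 10 had enough counts to be tested, as did 12115 genes in all. All libraries came from Sprr1a-GFP mice, taken to be heterozygous from the word Hetz in their titles. Each mouse had a myocardial infarction at 12 weeks of age, and cells were freed by Langendorff perfusion 5 days later. No uninjured heart was analysed here. The GFP+ group is labelled border zone cardiomyocytes and the GFP− group remote zone cardiomyocytes, so the zone is given by the reporter and the 2 cannot be told apart. Each of 5 mice (17C1, 17C2, 21A4, 21A5 and 21A7) gave 1 library of each group. The titles of the GFP+ libraries name both DAPI-negative and DAPI-positive sorts, while those of the GFP− libraries name DAPI-negative cells alone, so the DAPI gate and the GFP group cannot be told apart either.

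The Hippo pathway is a kinase cascade that holds back growth. Upstream kinases (MST1 and MST2, encoded by Stk4 and Stk3) and their adaptors activate LATS1 and LATS2, which phosphorylate YAP and TAZ and keep them in the cytoplasm. When the cascade is quiet, YAP and TAZ enter the nucleus and act through TEAD proteins, which bind DNA at the sequence CATTCC. Angiomotin-like proteins bind YAP at cell junctions, and AJUBA binds and restrains LATS kinases. In the heart, YAP drives proliferation of fetal cardiomyocytes and has been studied for its role in regeneration. Much of this control acts on the proteins by phosphorylation and location, which transcript levels do not measure.

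The promoters of the set are shown first, since the data bear on genes that TEAD proteins can regulate. RefSeq promoter sequences (mouse build GRCm38.p6, 250 bases before to 50 after the start) were at hand for 8 of the 10 genes, all but Tead1 and Ccn2. The motif CATTCC, or GGAATG on the other strand, lay in that 300-base window in 6 of the 8 genes (Yap1, Wwtr1, Lats2, Ccn1, Amotl2 and Ajuba), and in 14.7% of 32851 promoters of the same length. Lats1 and Amotl1 had no match in their windows. A gene was counted if any of its listed starts had a match, whereas the shares are over single windows. Wwtr1 and Lats2 have 2 windows each, and only 1 of those of Lats2 holds a match. Upstream of the start alone it was found in 5 of the 8 genes and in 12.6% of all promoters, because the match of Lats2 lies at position 4 downstream. Ajuba had 2 matches, at −186 and −164 from its start; 2 or more were present in 1.36% of all promoters. The AP-1 motif TGANTCA, which does not share bases with these matches, was in 0 of the 8 genes and in 7.81% of all promoters. The genes were chosen as pathway members and known targets, so their share is not that of genes drawn at random. A match is a description of letters and not a measured binding site. Ccn1, as a known target with a single match, and Ajuba, as the gene with 2 matches, are printed over the 250 bases before the start, 5′ to 3′ on the gene's strand with the motif in capitals. Ccn1 is at chr3:145649986-145650235 on the minus strand, with its motif at −103, and Ajuba at chr14:54577662-54577911 on the minus strand.
Ccn1: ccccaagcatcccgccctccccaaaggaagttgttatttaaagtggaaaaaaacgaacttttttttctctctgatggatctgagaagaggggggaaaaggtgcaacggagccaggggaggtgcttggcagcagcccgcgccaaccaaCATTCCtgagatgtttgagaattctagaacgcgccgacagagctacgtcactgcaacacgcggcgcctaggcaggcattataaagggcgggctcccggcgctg
Ajuba: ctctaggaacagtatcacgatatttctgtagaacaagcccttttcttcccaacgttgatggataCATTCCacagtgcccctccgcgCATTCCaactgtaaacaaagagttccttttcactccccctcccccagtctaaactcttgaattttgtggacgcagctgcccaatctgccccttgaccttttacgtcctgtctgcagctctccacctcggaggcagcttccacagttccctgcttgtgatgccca

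For the other 3 genes with an upstream match, the 30 bases around the motif show how it is turned. Yap1 (chr9:8004720-8004749, minus strand, motif at −141) and Wwtr1 (chr3:57576029-57576058, minus strand, motif at −136 or −170 by which of its 2 listed starts is used) read GGAATG. Amotl2 (chr9:102717727-102717756, plus strand, motif at −65) reads CATTCC, as Ccn1 and Ajuba do.
Yap1: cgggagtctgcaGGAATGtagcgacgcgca
Wwtr1: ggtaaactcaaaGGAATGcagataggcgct
Amotl2: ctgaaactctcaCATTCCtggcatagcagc

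Read counts per library lay between 12244373 and 38879965, of which 3417972 to 16918067 fell outside mitochondrially encoded genes. Sprr1a, which names the reporter, checks the sort: it was at 158 to 317 CPM (counts scaled to a common library size) in GFP+ and 0.191 to 8.98 CPM in GFP− libraries. All 13 cardiomyocyte markers were detected in every library, as were all 11 endothelial markers, so detection alone does not tell the cell types apart. The sum of the cardiomyocyte markers was 12340 to 47730 CPM in GFP+ and 4610 to 57340 CPM in GFP− libraries, lowest in the GFP− library of 21A7. That mouse also gave the GFP+ library with the highest mitochondrial share (91.2% of counts) and the GFP− library with the lowest (9.20%). Fibroblast, macrophage, endothelial and mural markers, summed as non-myocyte markers, split the libraries by identifier series. In the 17C mice the sum was 453 and 681 CPM in GFP− and 678 and 631 CPM in GFP+ libraries. In the 21A mice it was 8143, 12990 and 13920 CPM in GFP− and 2667, 2352 and 6192 CPM in GFP+ libraries (21A4, 21A5, 21A7). For this reason the values of the 2 series (17C with 2 mice, 21A with 3) stand next to those of all 5 mice. In the GFP− library of 21A7 the non-myocyte sum (13920 CPM) was above the cardiomyocyte sum (4610 CPM). In bulk RNA, more cells of a type and more RNA per cell cannot be told apart.

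None of the 10 genes passed an adjusted p of 0.05 (edgeR quasi-likelihood test, all 5 mice), and 1, Ccn2, had an unadjusted p under 0.05. Of all genes tested 0.0825% passed, and 8.18% had an unadjusted p under 0.05. With the mouse as a block, which compares the 2 libraries of each mouse, again 0 of 10 passed, against 0.858% of all genes, and Ccn2 and Ajuba had an unadjusted p under 0.05, against 15.3% of all genes. The median log2 fold change (GFP+ against GFP−) of the 10 genes was −0.22, and that of all tested genes −0.07. Of the 10, 3 had a fold change above 0 and 7 below. In none of the 10 did the groups fail to overlap, which 2.45% of all tested genes did. Within the 17C mice alone 2 genes passed, Ccn2 and Ajuba, both higher in GFP+ cells, against 9.53% of genes tested there (4.61% as higher). In the 21A mice alone 0 of 10 passed, and 0 of 13221 genes did in that fit (1621 genes, none of the 10 among them, had an unadjusted p under 0.05). With the mouse as a block, 3 passed in the 17C mice, Ccn2 and Ajuba as higher and Tead1 as lower, against 13.6% of genes there (6.08% as higher and 7.52% as lower). With that block 0 of 10 passed in the 21A mice, against 6.72% of genes. Among the GFP− libraries, 8 of the 10 genes were lower in both 17C mice than in every 21A mouse, and Yap1 and Tead1 were higher there. Among the GFP+ libraries, Lats2, Ccn1, Amotl1 and Amotl2 were lower in the 17C mice, and the series overlapped for the other 6. The share of all tested genes that split by series in this way was not counted. These counts are therefore not shown to be particular to the 10 genes.

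**Figure D1:**
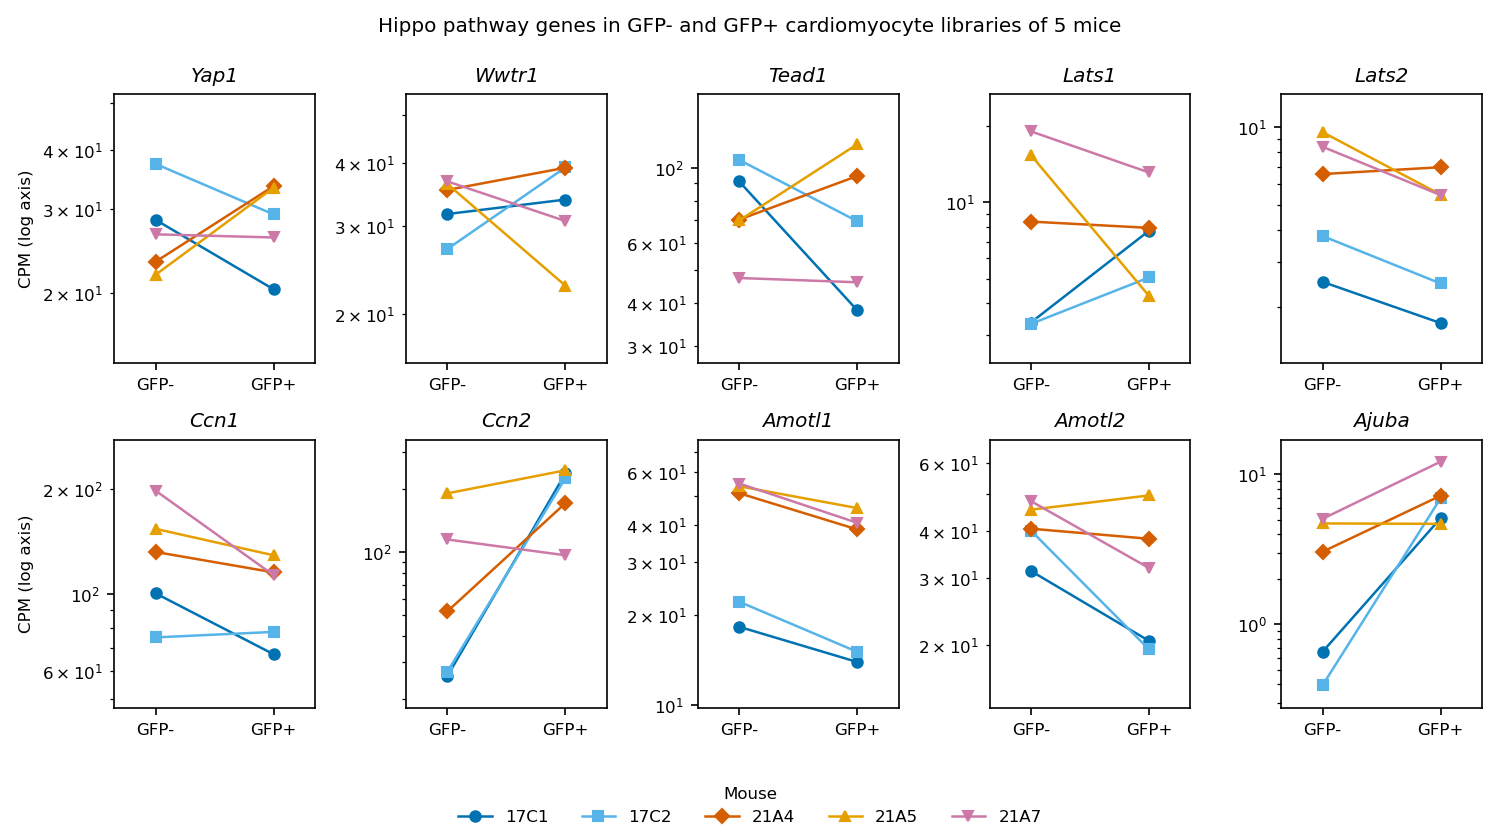
Level of each of the 10 genes in CPM (log axis) in the GFP− and GFP+ library of each mouse, 1 line per mouse. Ccn2 and Ajuba start low in the GFP− libraries of 17C1 and 17C2 and end among the GFP+ libraries of the other mice, while the lines of Yap1, Wwtr1 and Tead1 cross.

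The co-activators and Tead1 did not pass the test. Yap1 was at 28.5, 37.3, 23.3, 21.8 and 26.55 CPM in the GFP− libraries of 17C1, 17C2, 21A4, 21A5 and 21A7, and at 20.3, 29.2, 33.5, 33.3 and 26.15 CPM in their GFP+ libraries. The groups overlapped, with GFP+ lower in both 17C mice, higher in 21A4 and 21A5 and nearly level in 21A7. The log2 fold change was 0.05 ± 0.25 (SE; edgeR adjusted p = 0.964), with a 95% interval of −0.49 to 0.60. By series the value was −0.40 (17C) and 0.40 (21A). Wwtr1, which encodes TAZ, was at 31.6, 26.9, 35.4, 36.3 and 36.8 CPM in GFP− and 33.8, 39.2, 39.2, 22.7 and 30.6 CPM in GFP+ libraries, in the same order of mice. It was higher in GFP+ cells of 3 mice and lower in 21A5 and 21A7, with all GFP− values inside the range of the GFP+ ones. The difference was −0.01 ± 0.24 (adjusted p = 0.988, 95% interval −0.53 to 0.51).

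Tead1, whose product carries YAP and TAZ to DNA, varied more between mice. Its levels were 91.0, 105, 70.4, 69.95 and 47.5 CPM in GFP− and 38.2, 69.6, 94.4, 117 and 46.1 CPM in GFP+ libraries. Both 17C mice had less Tead1 in GFP+ cells, 21A4 and 21A5 had more, and 21A7 was low in both of its libraries. Over all mice the difference was −0.07 ± 0.36 (adjusted p = 0.968, 95% interval −0.86 to 0.72). Within the 17C series it was −0.85 (adjusted p = 0.115), and −0.91 with the mouse as a block, where Tead1 passed (edgeR adjusted p = 0.0279). The 21A series gave 0.48 (0.681). The test of that difference between the series, with the mouse as a block, gave 1.30 ± 0.38 (adjusted p = 0.0623) and did not pass. The summed cardiomyocyte markers were lower in GFP+ than in GFP− cells of 17C1 (23590 against 49390 CPM) and 17C2 (31210 against 57340). They were higher in those of 21A4 (47730 against 36740) and 21A5 (46230 against 22290). In 21A7 they were also higher (12340 against 4610), while Tead1 was nearly level there (46.1 against 47.5 CPM). The part of these markers in the Tead1 values was not tested.

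The LATS kinases, which phosphorylate YAP and TAZ, did not pass the test. Lats1 was at 3.35, 3.31, 8.40, 15.4 and 19.1 CPM in GFP− and 7.72, 5.05, 7.93, 4.27 and 13.1 CPM in GFP+ libraries. GFP+ was higher in both 17C mice and lower in the 21A mice, by log2 differences of 1.19, 0.60, −0.08, −1.83 and −0.54, so the groups overlapped widely. The fold change was −0.39 ± 0.53 (adjusted p = 0.869), with 0.94 (0.347) for 17C and −0.75 (0.568) for 21A. The difference between the series did not pass either, at −1.73 ± 0.62 with the mouse as a block (edgeR adjusted p = 0.116). Lats2 was at 2.51, 3.78, 6.56, 9.54 and 8.37 CPM in GFP− and 1.74, 2.48, 6.98, 5.46 and 5.44 CPM in GFP+ libraries. It was lower in GFP+ cells of 4 mice and slightly higher in 21A4. The difference was −0.48 ± 0.48 (adjusted p = 0.813, 95% interval −1.53 to 0.57). Counts were low for this gene in the 17C mice: 16 reads (exact Poisson 95% interval 9.15 to 26, counting error only) in the GFP+ library of 17C1. Both genes were lower in the 17C than in the 21A GFP− libraries, as were the non-myocyte markers, whose part was not tested. In the GENCODE M21 annotation of the earlier build, 45.7% of the exon bases of Lats2 are shared with the gene Gm49361, which had 0 counts in all libraries.

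The angiomotin-like genes were lower in most GFP+ libraries without passing. Amotl1 was at 18.2, 22.1, 50.9, 53.7 and 54.8 CPM in GFP− and 13.9, 15.1, 38.5, 45.4 and 40.6 CPM in GFP+ libraries. The 17C libraries were all below the 21A libraries, and within each mouse GFP+ was the lower one. The within-mouse log2 difference was −0.40 ± 0.11 (SD, n = 5), the narrowest spread of the 10 genes, and 8.02% of all tested genes were lower in 5 of 5 mice. The fold change was −0.38 ± 0.44 without the block (edgeR adjusted p = 0.842) and −0.40 ± 0.19 with it (adjusted p = 0.35). Amotl2 was at 31.3, 40.0, 40.5, 45.4 and 47.8 CPM in GFP− and 20.6, 19.5, 38.1, 49.5 and 31.9 CPM in GFP+ libraries. It was lower in GFP+ cells of 4 mice and higher in 21A5, and the 17C mice had the 2 lowest GFP+ values. Its fold change was −0.36 ± 0.30 (adjusted p = 0.775), with −0.82 (0.0876) for 17C and −0.14 (0.869) for 21A.

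Ajuba, a LIM-domain protein of cell junctions, was higher in GFP+ cells of the 17C mice and of 21A4 and 21A7. Its counts were 11, 5, 160, 213 and 280 in GFP− and 47, 73, 91, 102 and 114 in GFP+ libraries. Scaled, that was 0.658, 0.394, 3.05, 4.71 and 5.06 CPM in GFP− and 5.11, 6.95, 7.22, 4.68 and 12.2 CPM in GFP+ libraries. The 2 lowest values belonged to the GFP− libraries of the 17C mice, 21A5 was level, and GFP− of 21A5 and 21A7 lay just inside the GFP+ range. The exact Poisson 95% intervals of the lowest pair, 0.328 to 1.18 CPM and 0.128 to 0.919 CPM, lay below those of the other 8 libraries. Over all mice the log2 fold change was 1.36 ± 0.64 (edgeR adjusted p = 0.616, 95% interval −0.03 to 2.74), and 1.76 ± 0.59 with the mouse as a block (adjusted p = 0.213). Ajuba rose by 3.49 ± 0.79 in the 17C series (adjusted p = 0.0281), and the 21A series gave 0.92 ± 0.44 (0.449). The difference between the series was −2.65 ± 0.79 with the block (adjusted p = 0.0677) and did not pass.

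Ccn1 and Ccn2, close relatives that code for matrix-associated signalling proteins and are both used as readouts of YAP and TAZ, had values on opposite sides of 0. Ccn1 was at 100.3, 75.0, 132, 154 and 197 CPM in GFP− and 67.1, 77.8, 115, 129 and 113 CPM in GFP+ libraries. GFP+ was lower in 4 mice and level in 17C2, and the groups overlapped. Its fold change was −0.39 ± 0.33 (edgeR adjusted p = 0.784, 95% interval −1.12 to 0.33), and by series −0.27 (17C) and −0.41 (21A).

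Ccn2 was at 25.7, 26.9, 52.2, 191 and 115 CPM in GFP− and 238, 226, 172, 246 and 96.7 CPM in GFP+ libraries. The GFP+ libraries of 4 mice lay close together, that of 21A7 was lower, and the GFP− libraries ran from 25.7 to 191 CPM, so the groups overlapped through 21A5 and 21A7. The GFP+ mean was 196 ± 62.5 CPM and the GFP− mean 82.2 ± 70.8 CPM (SD, n = 5). The log2 fold change was 1.25 ± 0.56 (edgeR adjusted p = 0.601, 95% interval 0.02 to 2.48), and 1.63 ± 0.57 with the mouse as a block (adjusted p = 0.23). Ccn2 rose in the 17C mice by 3.15 ± 0.24 (edgeR adjusted p = 0.000774), while the 21A value was 0.55 ± 0.55 (0.733). The test of that difference gave −2.54 ± 0.54 with the mouse as a block (adjusted p = 0.0311), where 7.62% of all genes passed, and −2.62 ± 0.76 without it (0.219), where 0 of 12115 genes passed and 1712 had an unadjusted p under 0.05. Without 17C1 the fold change over the remaining mice was 0.96 and without 17C2 it was 0.98; without 21A5 and without 21A7 it was 1.67 and 1.57. Part of the Ccn2 locus is shared in GENCODE M21 with Gm15270 (22.9% of exon bases), which had 0 to 52 counts per library.

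**Figure D2:**
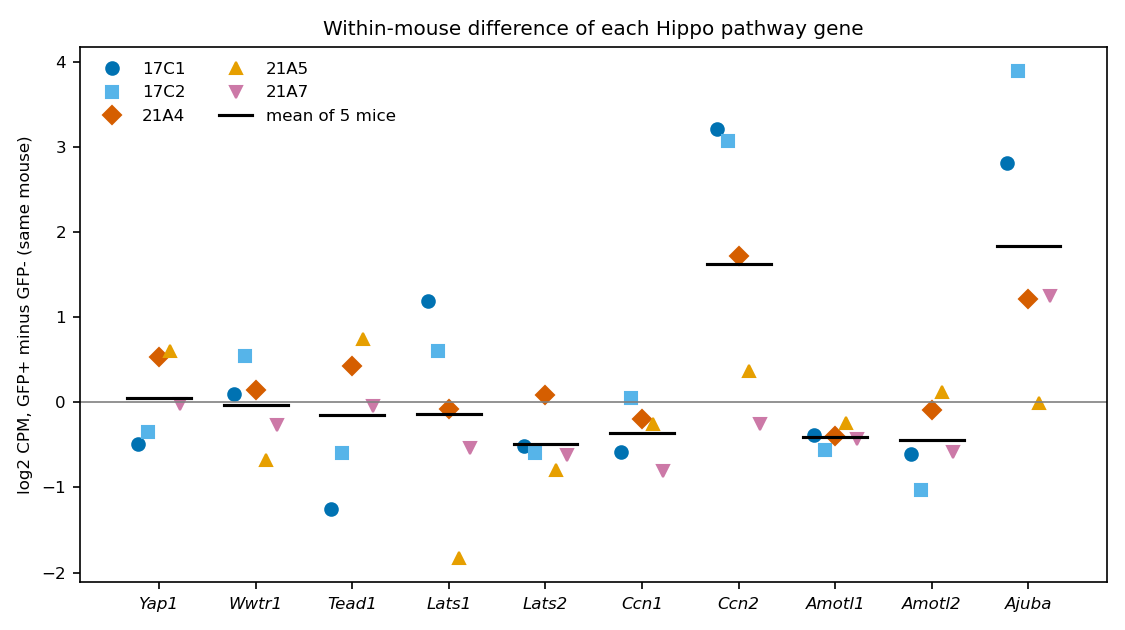
Log2 CPM difference between the GFP+ and the GFP− library of the same mouse for each of the 10 genes, 1 point per mouse, with the mean of 5 mice as a bar. Ccn2 and Ajuba lie near 3 or above in the 17C mice and lower in the 21A mice, and Amotl1 is the tightest, at −0.40 ± 0.11.

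Set within each library, the ratio of Ccn2 to Ccn1 was higher in GFP+ cells. The log2 ratio of Ccn2 to Ccn1 CPM was −1.96, −1.48, −1.34, 0.32 and −0.78 in GFP− and 1.83, 1.54, 0.57, 0.93 and −0.23 in GFP+ libraries, higher in GFP+ cells of 5 of 5 mice. Its mean over the GFP− libraries was −1.05 ± 0.87 and over the GFP+ libraries 0.93 ± 0.81 (SD, n = 5), and the GFP− value of 21A5 lay above the GFP+ value of 21A7. As a ratio of 2 genes in the same library it does not depend on the scaling between libraries. For the other pairs of relatives the ratio went both ways by mouse, higher in GFP+ cells of 2 mice each and lower in 3. Lats2 over Lats1 was −0.40, 0.19, −0.35, −0.69 and −1.18 in GFP− and −2.10, −1.004, −0.18, 0.35 and −1.26 in GFP+ libraries. Wwtr1 over Yap1 was 0.15, −0.47, 0.60, 0.73 and 0.47 in GFP− and 0.73, 0.42, 0.22, −0.55 and 0.23 in GFP+ libraries. The group means differed by −0.35 and −0.09 for these pairs and by −0.03 for Amotl2 over Amotl1. The pairs of genes were chosen as relatives of each other, with their values known, and no test was run on the ratios.

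Levels can be compared between genes only per length. Divided by exon length (CPM per kilobase, exons of GENCODE M21), Ccn1 was highest in GFP− cells at 65.2 ± 23.5, followed by Ccn2 at 29.6 ± 25.5, whose ranges overlapped. Amotl2 (9.19 ± 1.42), Tead1 (7.64 ± 2.21), Wwtr1 (6.99 ± 0.867) and Yap1 (6.59 ± 1.46) came next with overlapping ranges. Amotl1 was at 4.37 ± 1.99, and Lats1 (1.36 ± 0.977), Lats2 (0.951 ± 0.46) and Ajuba (0.817 ± 0.645) came last. The ranges also overlapped between neighbours in this order: Ccn2 (from 9.25) with Amotl2 (up to 10.7), Amotl1 (1.99 to 6.0) with Yap1, Wwtr1 and Tead1, and Lats1 (up to 2.62) with Amotl1, Lats2 and Ajuba. In GFP+ cells Ccn2 came first at 70.5 ± 22.5 and Ccn1 followed at 49.7 ± 13.1, again with overlapping ranges. Ajuba, at 2.13 ± 0.876 per kilobase, stood above Lats1 (1.04 ± 0.476) and Lats2 (0.683 ± 0.342) in those cells, with overlap between Ajuba and Lats1. Exon bases shared with another gene, such as 45.7% for Lats2 and 22.9% for Ccn2, stayed in these lengths. How reads there were counted is not stated, so the places of Lats2 and Ccn2 are less certain.

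Markers of other cell types were set beside the Ccn2 and Ajuba values. For Ccn2 and Ajuba the lowest levels were in the GFP− libraries of the 17C mice, which had 453 and 681 CPM of non-myocyte markers. The GFP+ libraries of the same mice had 678 and 631 CPM of these markers. When the non-myocyte marker sum entered the fit as a covariate, Ajuba passed at 2.38 (edgeR adjusted p = 0.0269) and Ccn2, at 2.01, did not (0.113). In that fit 129 of 12115 genes passed. With that covariate and the mouse as a block both passed, Ccn2 at 2.61 and Ajuba at 2.98 (adjusted p = 0.0152 each). Of all 12115 genes 988 passed there, against 10 without covariate and block. Mesothelial markers, which the non-myocyte sum leaves out, were higher in GFP+ cells of 5 of 5 mice. Their sum over 8 genes was 0.718, 20.6, 40.4, 28.8 and 196 CPM in GFP− and 143, 186, 120, 101 and 420 CPM in GFP+ libraries. In the GFP− library of 17C1, 6 of the 8 (Upk3b, Upk1b, Msln, Krt19, Muc16 and Gpm6a) were at 0, and all 8 were detected in the others. As a share of counts outside mitochondrial genes they did not pass (two-sided exact permutation p = 0.397, 0.529 after adjustment over 8 marker lists), nor did any of the other 7 lists (adjusted exact permutation p of 0.334 or more). That test ignores the pairing. Exact sign flips within mice gave the mesothelial share p = 0.0625 (0.167 adjusted), and the same for endothelial and neutrophil shares, which were lower in GFP+ cells. With 5 mice sign flips allow no smaller p, so they could not pass. Within the 17C series 5 of 8 mesothelial markers passed as higher and 7 of 13 cardiomyocyte markers as lower in GFP+ cells (edgeR), and with the block 8 and 8. In the 17C mice with the block 3 of 7 fibroblast markers also passed as higher, and of 9 mural markers 2 passed as higher and 1 as lower. In the 21A mice no marker passed without the block. With it, 6 of 8 mesothelial and 2 of 13 cardiomyocyte markers passed as higher, and 8 of 10 fibroblast, 10 of 11 macrophage and 7 of 11 endothelial markers as lower. Of 10 mural markers 2 passed there as higher and 1 as lower. The part of these markers in the Ccn2 and Ajuba values was not tested.

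**Figure D3:**
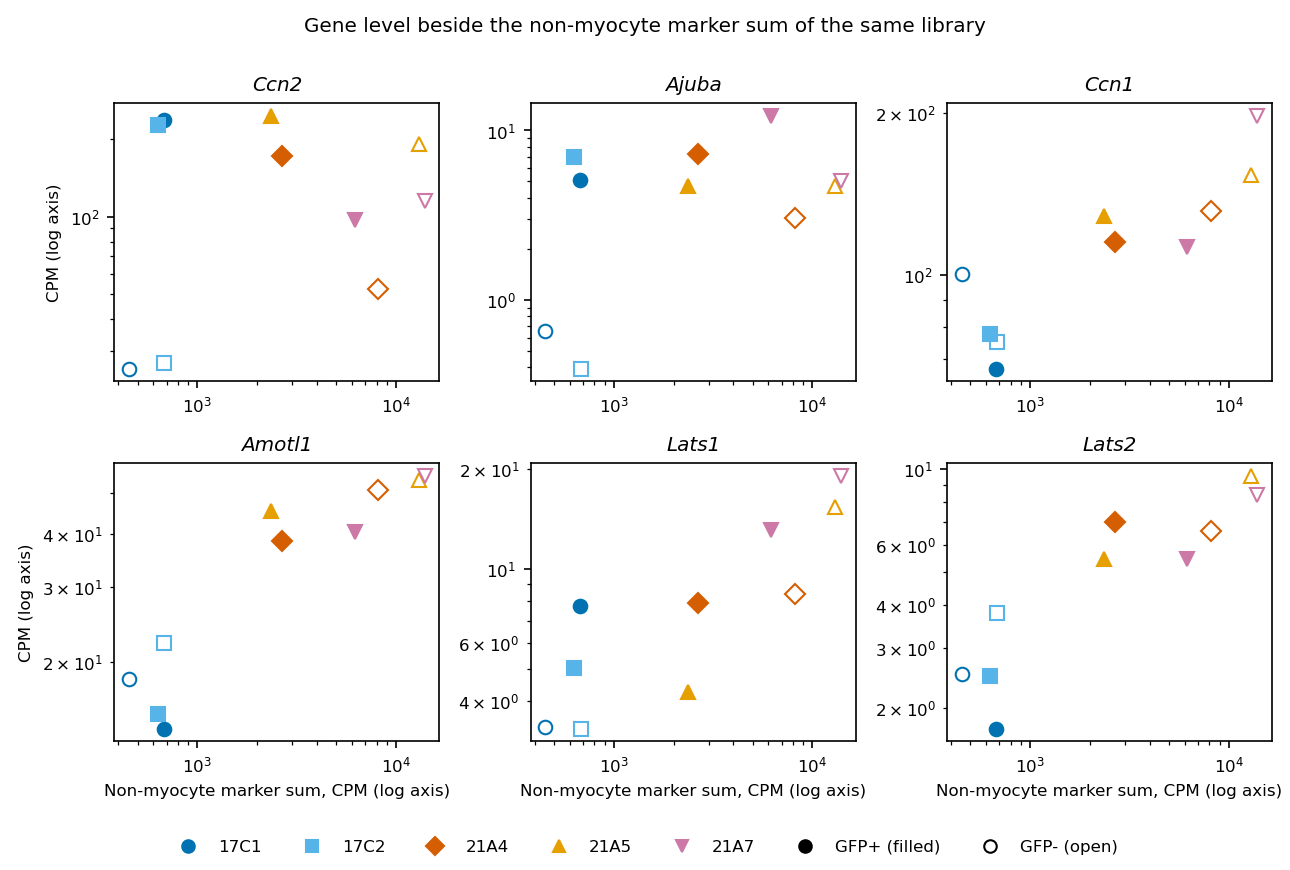
CPM of 6 of the genes (log axis) against the summed CPM of fibroblast, macrophage, endothelial and mural markers in the same library (log axis), filled for GFP+ and open for GFP− libraries. At the low marker sums of the 17C mice (453 to 681 CPM) Ccn2 and Ajuba differ widely between GFP− and GFP+, whereas Ccn1, Amotl1 and Lats2 differ less.

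The other genes of the pathway, 53 outside the set, were read from the same fit in 4 groups (kinases and their adaptors, junction and scaffold proteins, the STRIPAK phosphatase complex that opposes the MST kinases, and TEAD and VGLL factors). Of 51 tested, 0 passed over all mice (3 at an unadjusted p under 0.05), against 0.0825% of all genes. With the mouse as a block 1 passed, Stk38l, against 0.858% of all genes. The median of the 51 genes was −0.14, beside −0.07 for all genes. Stk38l encodes NDR2, a kinase related to LATS that can phosphorylate YAP. It was at 6.28, 8.90, 8.21, 8.10 and 5.98 CPM in GFP− and 26.4, 19.6, 16.3, 25.7 and 15.2 CPM in GFP+ libraries. Every GFP+ library was above every GFP− library, in both series. Over all tested genes, the groups did not overlap in 2.45% (either direction), and 9.14% were higher in 5 of 5 mice. The log2 fold change was 1.46 ± 0.26 (edgeR adjusted p = 0.0765) and 1.44 ± 0.24 with the block, where it rose past the threshold (0.0426). By series it was 1.61 (17C, adjusted p = 0.0259) and 1.38 (21A, 0.225), and with the block Stk38l passed in each (0.00859 and 0.0177). Its activator Mob1b was higher in GFP+ cells of 5 mice, at 8.22 to 35.3 CPM against 5.03 to 14.3 CPM, and did not pass (1.26 ± 0.40, adjusted p = 0.386). The kinase Map4k4, which works beside the MST kinases, was lower in 5 of 5 mice and did not pass over all mice (−0.63 ± 0.42, adjusted p = 0.718). Map4k4 fell by 1.46 on the log2 scale in the 17C mice (edgeR adjusted p = 0.00965), and the 21A value was −0.35 (0.699). By the block, 1 pathway gene passed without 17C1 and 0 passed without any other single mouse. Within the series, 4 of 46 tested pathway genes passed in 17C (9.53% of all genes did) and 0 of 51 in 21A. With the block 7 of 46 passed in 17C, against 13.6% of all genes, and 3 of 51 in 21A, against 6.72%, so these counts lay near the share over all genes. The 7 were Mob1b, Stk38l, Fat1 and Strn (higher) and Map4k4, Tnik and Nf2 (lower), and the 3 were Stk38l and Strn (higher) and Dchs1 (lower). Tnik, Fat1 and Nf2 are named after their values were seen.

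Of the junction and scaffold proteins 0 of 17 passed. Limd1, an Ajuba relative, had a fold change of 0.36 ± 0.26 (edgeR adjusted p = 0.743), and the polarity protein gene Scrib −0.32 ± 0.31 (0.812). The large cadherin Dchs1 was lower in GFP+ cells of 5 mice (0 to 14.2 CPM against 1.32 to 28.5 CPM), at −1.46 ± 1.13 (0.755). From this group 2 genes passed in the 17C mice and were picked out after their values were seen. Fat1, a giant cadherin that feeds into the pathway, rose there by 1.07 ± 0.23 (edgeR adjusted p = 0.0245) and had −0.50 in 21A (0.632). Nf2, which encodes merlin, an activator of LATS, fell there by 0.97 on the log2 scale (0.0447) and had 0.22 in 21A (0.802). STRIPAK genes had a median of 0.23, with 10 of 12 above 0 and 0 passed. Strn, its striatin scaffold, was higher in 5 of 5 mice, at 45.8, 41.9, 35.9, 54.2 and 23.3 CPM in GFP+ and 26.6, 20.4, 20.2, 17.9 and 15.7 CPM in GFP− libraries (1.00 ± 0.28, adjusted p = 0.294). Sike1 and Pdcd10, 2 further subunits, were at 0.64 ± 0.31 (0.622) and 0.58 ± 0.35 (0.695). Of 7 TEAD and VGLL genes 5 were tested and 0 passed. Tead3 was at 0.109 to 7.26 CPM in GFP+ and 1.65 to 10.5 CPM in GFP− libraries, Tead2 at 0 to 5.76 and 0 to 8.66 CPM, and Tead4 at 0 to 1.81 and 0 to 2.51 CPM. All 5 tested genes of this group had values below 0, with −0.90 ± 0.87 for Tead3 (0.811), −1.04 ± 1.18 for Tead2 (0.835) and −0.73 ± 1.06 for Tead4 (0.88). In the 17C mice alone 3 of them were tested, 2 above 0 and 1 below. In the 21A mice all 5 were below 0.

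Ccn2 was then set beside other genes regulated by YAP and TAZ, a published target list of 18 genes after removal of those already in the set. Of 16 tested, 0 passed over all mice, against 0.0825% of all genes. With the mouse as a block 3 passed, all higher in GFP+ cells, against 0.858% of all genes (83 of those 104 as higher). The list's median was −0.13, so most of its genes did not share that direction: 5 were above 0 and 11 below. Of all tested genes 5482 were above 0 and 6633 below, with a median of −0.07. Tgfb2, a TGF-β ligand, was at 7.90, 4.49, 8.51, 16.9 and 20.9 CPM in GFP− and 69.9, 74.1, 79.2, 95.1 and 32.8 CPM in GFP+ libraries. No library of one group reached the other, which held for 2.45% of all tested genes (either direction), and 21A7 had the smallest gap. Without the block the difference was 2.58 ± 0.45 (edgeR adjusted p = 0.0765), and with the block it rose by 2.74 ± 0.47 (0.0434). Nt5e, which encodes the ecto-nucleotidase CD73, was at 5.74, 7.01, 3.26, 4.82 and 5.46 CPM in GFP− and 34.6, 15.5, 15.0, 15.6 and 13.6 CPM in GFP+ libraries. The groups did not overlap and 17C1 had the highest value; the fold change was 1.84 ± 0.34 (edgeR adjusted p = 0.0777) and with the block Nt5e rose by 1.79 ± 0.28 (0.0376). Ankrd1, a titin-associated stress protein of cardiomyocytes, was at 153, 161, 95.1, 269 and 38.6 CPM in GFP− and 422, 576, 570.1, 613 and 235 CPM in GFP+ libraries. It was higher in GFP+ cells of 5 of 5 mice, with overlap only between GFP− of 21A5 and GFP+ of 21A7. Its fold change was 1.75 ± 0.50 (edgeR adjusted p = 0.305), and with the block Ankrd1 rose by 1.94 ± 0.32 (0.0424).

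With the block each of these 3 genes passed in both series, and the tests of a difference between the series did not pass (−1.43 ± 0.67 for Tgfb2, −0.14 ± 0.53 for Nt5e and 0.48 ± 0.49 for Ankrd1, adjusted p of 0.217, 0.902 and 0.596). The count of target genes past the threshold with the block depended on single mice: it was 0 without 17C2, 21A4 or 21A5, 1 without 21A7 and 3, of which 1 was lower, without 17C1. Myof and Ccdc80, also named after their values were seen, fell in the 21A mice with the block, by 1.32 (0.0189) and 1.61 (0.0137) on the log2 scale. In the 17C mice alone 4 of the 16 target genes passed, all higher, against 4.61% of all genes as higher (9.53% either way): Tgfb2, Nt5e, Ankrd1 and Axl, a receptor tyrosine kinase named here after its values were seen. Axl was at 4.31, 9.61, 54.6, 74.0 and 109 CPM in GFP− and 57.7, 57.8, 48.7, 50.4 and 83.1 CPM in GFP+ libraries. Its GFP− levels were low in the 17C mice and higher in the 21A mice, the order seen for Ccn2, Ajuba and the non-myocyte markers. It rose by 3.08 ± 0.38 in the 17C mice (edgeR adjusted p = 0.00223) and had −0.36 in 21A (0.737). Of the CCN family outside the set, 2 of 4 genes were tested. Ccn5 had a fold change of −2.68 ± 1.04 (edgeR adjusted p = 0.545) and Ccn4 of −0.59 ± 0.80 (0.868), with at most 27.4 and 21.3 CPM in any library.

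**Figure D4:**
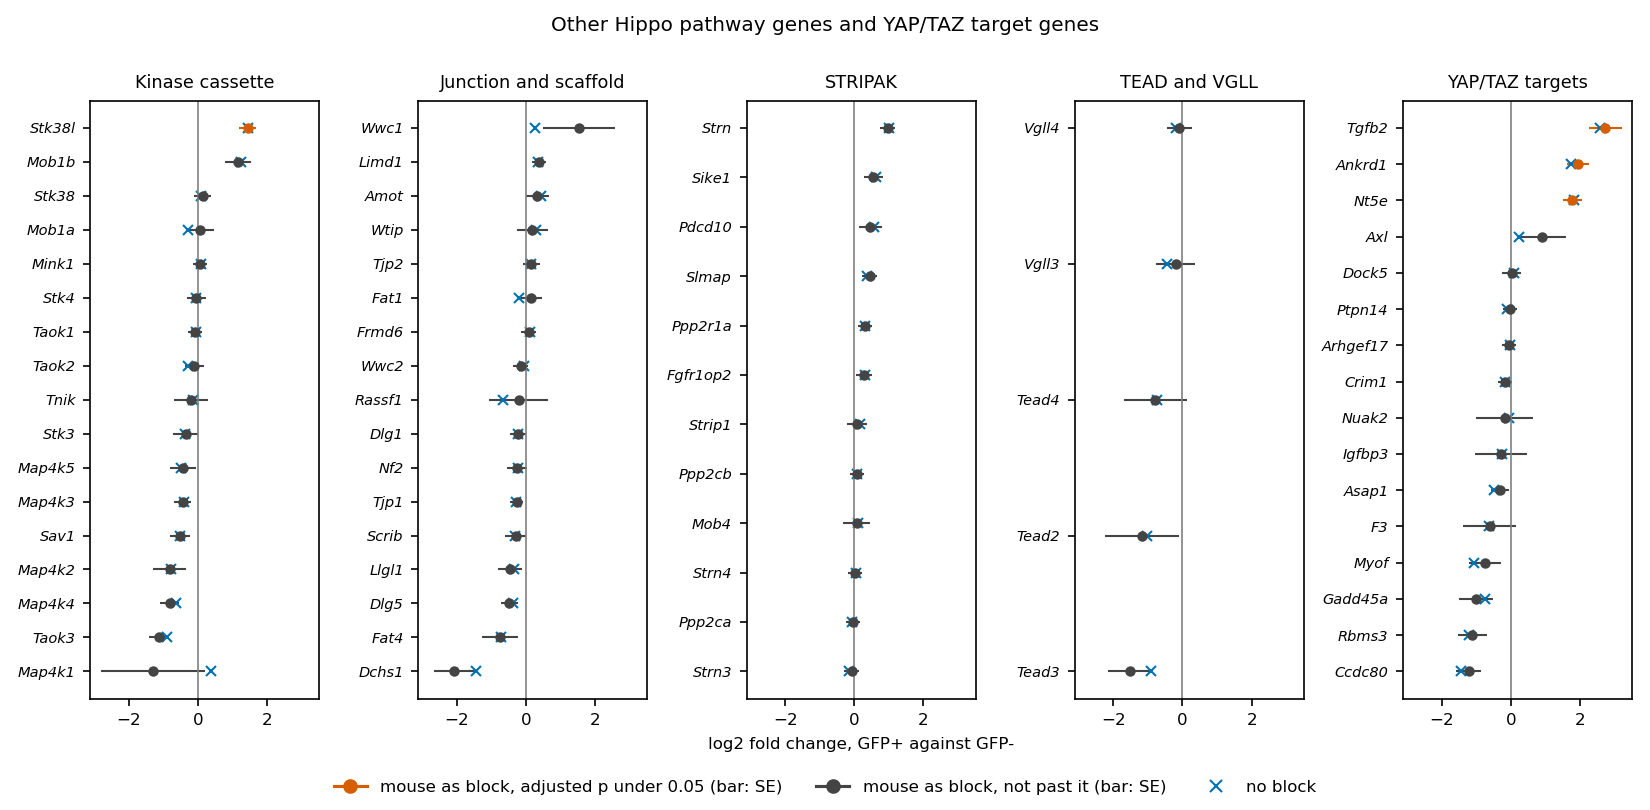
Log2 fold change (GFP+ against GFP−) of the other tested pathway genes and YAP/TAZ target genes, with the mouse as a block (circles, bar: SE) and without it (crosses). Stk38l, Tgfb2, Ankrd1 and Nt5e are the genes past an adjusted p of 0.05 with the block, and all 4 lie to the right of 0.

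By similarity of log2 CPM over the 10 libraries, among 4686 genes with a mean of at least 10 CPM, each gene of the set was compared with its 3 nearest. Closest to Ccn2 were Adam9 (Pearson r = 0.957), Gask1b (0.957) and Rhoc (0.956), and among the closest to Ajuba were Hpgd (0.970) and Ephx1 (0.954). Amotl1 was matched by Aplp2 (0.989), Sec14l1 (0.986) and Dlg5 (0.981), and Lats2 by Sec14l1 (0.965), Amotl1 (0.964) and Nav1 (0.960). Thbd (0.978), Mob1a (0.970) and Actb (0.966) were closest to Lats1, and Bag3 (0.958), Atp11a (0.956) and Kif1b (0.956) to Tead1. Ap2a2 (0.974) led for Ccn1 and Sema4d (0.966) for Amotl2. The best matches of Yap1 (Emc1, 0.863) and Wwtr1 (Dnajb1, 0.826) were weaker. These values describe 10 libraries that share mice, depth and marker content, and each was picked as the highest of all candidates.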

How the data were processed

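RNA of sorted cardiomyocytes was sequenced in 10 libraries, 1 GFP+ and 1 GFP− from each of 5 mice. Per the labels' protocols, RNA was amplified with a SMARTer kit and made into unstranded Nextera XT libraries. PCR copies are counted, since molecular identifiers are not mentioned. The deposited values are raw whole-number read counts per gene from the authors. Per the submitters' processing notes they used fastp 0.23.1, STAR 2.7.9a, Subread 2.0.1, featureCounts and the build GRCm39. Nothing read here states the annotation release, the strand setting or the rule for multi-mapping reads, which makes genes that overlap uncertain. Exon lengths and overlaps came from GENCODE M21 and promoters from RefSeq, both of the earlier build; their coordinates were not joined to the counts.

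The test was edgeR's (version 4.0.16, R 4.3.3; quasi-likelihood, two-sided, TMM scaling, filterByExpr, Benjamini-Hochberg over all 12115 tested genes, threshold 0.05). SE is the log2 fold change over the square root of F, and log2 CPM uses a prior count of 2. The fit without pairing is the main one. Libraries were paired by the animal identifier in the titles. Same-mouse deviations from the group means correlated across genes at 0.292 (17C1), 0.397 (17C2), 0.161 (21A4), 0.0741 (21A5) and 0.637 (21A7). For marker shares an exact permutation test was used, whose 252 regroupings allow no p below 0.00794. Exact sign flips within mice were run beside it and allow no p below 0.0625.

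The genes of the set and all lists were chosen with earlier results of these data known. All 10 genes are named; from each further list, up to 3 genes with the smallest p and any gene past the threshold with or without the block. For 1 similar gene no value is reported here. Alternatives were DESeq2 1.42.0, limma 3.58.1 (voom), other scalings and filters, covariates, fits of 1 series, and fits without 1 mouse or 1 library. The block within each series was added after seeing the data. On simulated counts for this comparison (11536 genes), the fit recovered 59% of changes of 2 and 96% of changes of 3 on the log2 scale, and with the block (11572 genes) 37% and 88%. In the data the block went the other way, from 10 to 104 genes past the threshold. These shares therefore describe the simulated counts and may not hold for the libraries themselves.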

Additional observations from a re-analysis of the deposited data

Results flagged for a closer look

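Ccn2, Axl, Fat1, Ccn5 and Ccn4 differed between the 21A and the 17C mice in their GFP+ against GFP− change, by an edgeR interaction test with the mouse as a block; 923 of 12115 tested genes (7.62%) did so. Without the block none of the 12115 genes passed, and 1712 had an unadjusted p under 0.05. For Ccn2 the log2 change in the 21A mice minus that in the 17C mice was −2.54 ± 0.54 (SE; adjusted p = 0.0311). For Axl it was −3.52 ± 0.41 (adjusted p = 0.0133), and for Fat1 −1.52 ± 0.34 (0.033). Ccn5, a secreted relative of Ccn2, gave −5.83 ± 1.00 (0.0234), with within-mouse differences of 3.09, 1.65, −2.07, −4.66 and −2.91 in 17C1, 17C2, 21A4, 21A5 and 21A7. Ccn4, another relative, gave −3.52 ± 0.63 (0.0234), with 2.34, 1.94, −1.47, −1.96 and −0.37. Axl and Fat1 were added after their values were seen.

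A library stood apart from the other 4 of its group for 2 target genes. Tgfb2 in the GFP+ library of 21A7 was at 32.8 CPM, with a gap of 0.711 of the group's log2 range against a limit of 0.71 (Dixon). Nt5e in the GFP+ library of 17C1 was at 34.6 CPM, with a gap of 0.852. Chance flags about 1 in 20 groups. The number of groups screened is not given here, so these 2 flags cannot be set against what chance would give.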

How the results depend on the processing

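Over all genes 10 passed. The count was 104 with the replicate block, 205 with DESeq2, 336 with limma voom, 635 with library size alone (624 lower), 38 with no filter on low counts, 19 with a stricter one, 97 with the identifier series as a covariate, 129 with the non-myocyte marker score as one and 988 with score and block. With scaling to cardiomyocyte markers it was 0 (edgeR; 366 at an unadjusted p under 0.05). The 17C series alone gave 1059 and the 21A series 0 (1621 unadjusted), or 1510 and 889 with the block, and 0 to 173 with 1 mouse or library left out. Of the 10 Hippo genes 0 passed, except 1 with the score, 2 with score and block, and in the 17C mice 2, or 3 with the block. Of the other pathway genes 0 passed, against 1 with the block, the stricter filter, the series or the score, 2 with DESeq2, 3 with voom or with score and block, 4 in the 17C mice, 7 there and 3 in the 21A mice with the block, and 0 to 1 with a mouse or library left out. Of the target genes 0 passed, against 3 with the block, DESeq2, voom or (all lower) library size alone, 1 with no filter, 2 with the series or the score, 4 with score and block or in the 17C mice, 5 in the 21A mice with the block, and 0 to 3 with a mouse or library left out. Library size alone moved the median of all genes to −1.24 and cardiomyocyte scaling to −0.72, from −0.07; there Ccn2 was at −0.17 and −0.076 (1.07 and 0.64 above that median), Yap1 at −1.01 and −0.69 (0.23 and 0.03 above it), and with library size alone Ajuba at −0.53 (0.72 above it). Further changes of sign, none past the threshold, were for Lats1 0.31 with the score, 0.74 with score and block, 0.94 and 0.92 in the 17C mice without and with the block; for Wwtr1 0.02, 0.23, 0.33 and 0.33 in the same order; for Yap1 −0.32 with score and block, −0.40 and −0.41 in the 17C mice; for Tead1 0.085 with voom, 0.48 and 0.40 in the 21A mice; and for Amotl1 0.002 with the score. With a mouse or library left out, Lats1 ran from −0.66 to 0.25, Tead1 from −0.39 to 0.17, Wwtr1 from −0.17 to 0.11, Yap1 from −0.10 to 0.20, Ccn2 from 0.96 to 2.11 and Ajuba from 1.10 to 2.22. Amotl2, Ccn1 and Lats2 stayed below 0 under all alternatives run. The causes were not tested. The stricter filter, a minimum of 5 CPM in 5 libraries, removed Lats2, so that fit gave no value for it.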
